A study of Mus musculus with 23 samples.

Results

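The genes described here are 10 mouse genes that encode enzymes of tRNA and rRNA modification, or partners of such enzymes, out of 37310 genes counted in the RNA-seq libraries. They were chosen by function around Trdmt1, with the knowledge that Trdmt1, Trp53rk and Mettl15 were lower in Zbtb11 KO cells, so the KO values of the members are given as a description and without a test. The members are Trdmt1, Nsun2, Mettl1, Wdr4 and Mettl15, which are RNA methyltransferases or their partners, Trp53rk, Osgep, Tprkb and Lage3, which are subunits of the KEOPS complex, and Osgepl1, the mitochondrial relative of Osgep. All 10 were found by symbol and all 10 passed the filter on low counts (more than 1 CPM in at least 3 libraries), which 14346 genes passed in all. CPM are the reads of a gene scaled to the normalised size of its library.

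The study asked what the zinc finger protein Zbtb11 does in mouse embryonic stem cells (ESCs) of the E14 line. RNA was sequenced 48 h after treatment in 3 groups of 3 biological replicates. The EtOH control were Zbtb11lox/lox cells with ERt2-Cre in the Rosa26 locus, treated with the carrier ethanol. The Zbtb11 KO were cells of the same genotype treated with 250 nM 4-hydroxytamoxifen (4OHT), which activates the Cre fusion and deletes exon 3. The 4OHT control were Zbtb11WT/WT Rosa26 WT cells with the same dose of 4OHT, so this group has neither the floxed alleles nor a Cre, and it differs from the EtOH control in genotype and treatment together. The lox/lox ERt2-Cre cells descend from an isolated homozygous line. ChIP-seq was carried out on untreated cells with an anti-Zbtb11 antibody in Zbtb11WT/WT E14 cells (4 libraries), and with anti-FLAG in Zbtb11FLAG/FLAG cells, in which endogenous Zbtb11 carries the tag (3 libraries), and in untagged Zbtb11WT/WT cells as FLAG control (2 libraries).

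Reads counted on genes ranged from 14301457 to 23876604 per library. Replicate 1 stood apart from replicates 2 and 3 in all 3 groups, and the common biological coefficient of variation fell from 0.174 to 0.068 without it. The deleted gene could not be followed, because no row is named Zbtb11 and the annotated record of Rpl24 spans its locus. The 7 ES cell markers Pou5f1, Sox2, Nanog, Zfp42, Esrrb, Klf4 and Tdgf1 summed to between 3667 and 4303 CPM in every library, against 13.1 to 22.7 CPM for 7 markers of differentiated cells and 16.1 to 26.6 CPM for 5 fibroblast markers. In bulk RNA, fewer cells that express a gene and less RNA per cell cannot be told apart.

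Transfer and ribosomal RNAs carry many chemical groups that are added after transcription and that tune folding, stability and decoding. Methylation of tRNA cytosines by Trdmt1 (also called Dnmt2) and Nsun2 protects tRNAs from cleavage, and the Mettl1 and Wdr4 pair methylates a guanosine in the variable loop. KEOPS makes threonylcarbamoyladenosine next to the anticodon of tRNAs that read codons beginning with adenosine, and Osgepl1 does the same step in mitochondria. Mettl15 acts on the RNA of the small subunit of the mitochondrial ribosome.

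Trdmt1, Mettl15 and Trp53rk lie on chromosome 2, each under a strong Zbtb11 peak. Their promoters are printed first, with that of 2810408M09Rik, a near-identical copy of Trp53rk, and that of Tprkb, another KEOPS gene, which has a weaker peak. Each run holds 250 bases before and 30 bases from the annotated start, 5′ to 3′ on the strand of the gene, read from the mm9 build on which the peaks were called. Capitals mark CCGGAAG, the core letters of the site of ETS factors such as GABP, or GCGGAAC, on either strand. The first 4 promoters hold GCGGAAC and no CCGGAAG, and the last holds CCGGAAG on both strands, overlapping each other.
Trdmt1 (chr2:13466262-13466541, minus strand): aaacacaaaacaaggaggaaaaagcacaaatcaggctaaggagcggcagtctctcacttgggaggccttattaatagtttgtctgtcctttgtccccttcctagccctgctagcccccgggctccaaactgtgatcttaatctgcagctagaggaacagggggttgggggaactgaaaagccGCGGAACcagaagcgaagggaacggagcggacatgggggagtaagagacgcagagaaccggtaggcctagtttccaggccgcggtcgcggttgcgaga
Mettl15 (chr2:109118418-109118697, minus strand): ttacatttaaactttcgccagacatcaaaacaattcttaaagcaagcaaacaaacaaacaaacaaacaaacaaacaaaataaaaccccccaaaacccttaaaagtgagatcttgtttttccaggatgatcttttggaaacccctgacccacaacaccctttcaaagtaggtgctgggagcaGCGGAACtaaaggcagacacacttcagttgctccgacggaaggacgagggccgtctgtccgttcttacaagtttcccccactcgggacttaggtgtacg
Trp53rk (chr2:166619017-166619296, plus strand): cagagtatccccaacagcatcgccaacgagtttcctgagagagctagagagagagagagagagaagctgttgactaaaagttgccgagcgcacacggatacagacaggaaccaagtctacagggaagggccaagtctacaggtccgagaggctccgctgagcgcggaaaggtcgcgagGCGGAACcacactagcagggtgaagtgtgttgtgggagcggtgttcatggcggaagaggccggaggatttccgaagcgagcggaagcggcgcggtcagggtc
2810408M09Rik (chr2:165318795-165319074, minus strand): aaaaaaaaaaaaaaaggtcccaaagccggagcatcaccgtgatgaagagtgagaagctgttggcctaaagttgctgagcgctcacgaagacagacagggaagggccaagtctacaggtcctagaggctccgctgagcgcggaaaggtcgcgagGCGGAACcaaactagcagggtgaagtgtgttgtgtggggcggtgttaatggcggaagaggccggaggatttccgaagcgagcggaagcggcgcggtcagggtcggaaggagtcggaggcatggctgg
Tprkb (chr6:85865482-85865761, plus strand): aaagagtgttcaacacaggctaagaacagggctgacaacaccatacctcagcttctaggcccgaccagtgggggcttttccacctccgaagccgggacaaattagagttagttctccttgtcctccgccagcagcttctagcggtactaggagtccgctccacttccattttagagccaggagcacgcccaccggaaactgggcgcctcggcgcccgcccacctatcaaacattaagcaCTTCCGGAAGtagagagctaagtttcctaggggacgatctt

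Trdmt1 (ENSMUSG00000026723.4, chr2:13430641-13466291, minus strand) encodes a methyltransferase of an anticodon loop cytosine in a small group of tRNAs, among them the aspartic acid tRNA. It was expressed at 6.31, 8.13 and 8.14 CPM in the 3 EtOH control libraries and at 0.524, 0.873 and 0.745 CPM in Zbtb11 KO. The 4OHT control libraries were at 7.07, 10.2 and 9.95 CPM. Every KO library lay far below every control library, and the KO values rested on only 9, 18 and 15 reads. The mean level in KO was 9.49% of the EtOH control and 7.87% of the 4OHT control. Replicate by replicate, it was 8.31, 10.7 and 9.15% of the EtOH control. The fitted log2 fold change of KO against EtOH was -3.37 (SE 0.25, n = 3 libraries per group), and the difference between KO and 4OHT control was -3.65 (SE 0.25).

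Mettl15 (ENSMUSG00000057234.3, chr2:108932454-109120905, minus strand), the methyltransferase of mitochondrial small subunit rRNA, was at 5.53, 4.96 and 6.06 CPM in the EtOH control and at 1.98, 1.84 and 2.04 CPM in KO. In the 4OHT control it was at 5.70, 5.06 and 4.71 CPM. The KO libraries were close to each other and below all 6 control libraries. The KO mean was 35.4% of the EtOH control, and the log2 fold change was -1.50 (SE 0.16) against EtOH and -1.39 (SE 0.16) against the 4OHT control.

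Trp53rk (ENSMUSG00000042854.8, chr2:166618031-166625005, plus strand), the kinase-like subunit of KEOPS, had the lowest mean CPM of the 10 genes in both controls. It was at 2.24, 2.61 and 3.79 CPM in the EtOH control, at 0.349, 0.824 and 1.09 CPM in KO, where 6, 17 and 22 reads were counted, and at 2.06, 4.15 and 3.60 CPM in the 4OHT control. KO did not overlap with either control, but the range within each control group was wider than the gap between the nearest KO and control libraries. The KO mean was 26.2% of the EtOH control, and 15.6, 31.6 and 28.8% in replicates 1, 2 and 3. The log2 fold change was -1.90 (SE 0.41) against EtOH and -2.10 (SE 0.41) against the 4OHT control.

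**Figure D1:**
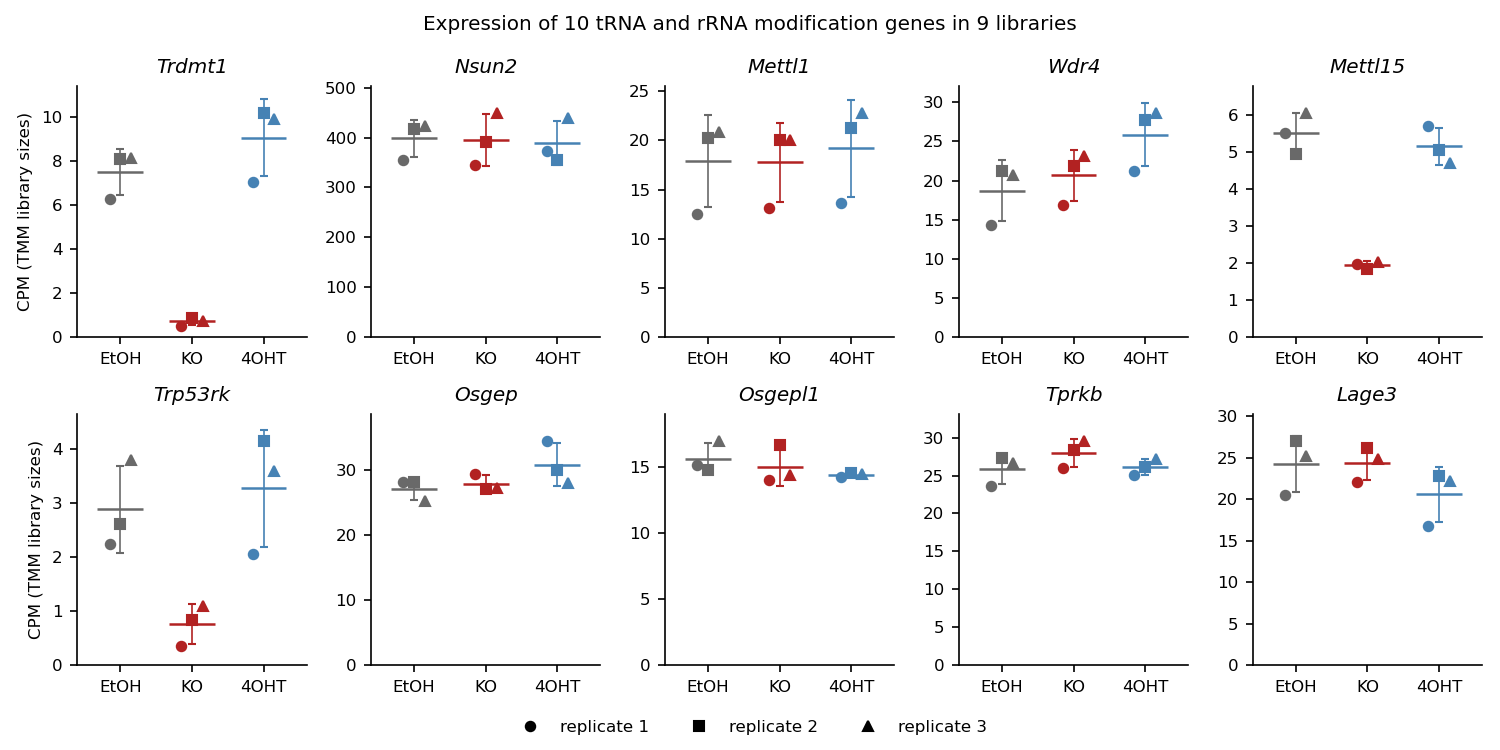
CPM (y axis, from 0, scaled by TMM library sizes) of the 10 genes in the 3 EtOH control, 3 Zbtb11 KO and 3 4OHT control libraries. Symbols are replicates 1 to 3, lines are means and bars are SDs (n = 3). Trdmt1, Mettl15 and Trp53rk in KO lie below all control libraries, while the other 7 genes overlap between KO and EtOH.

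The Trp53rk values cannot be read apart from those of a second locus. The gene 2810408M09Rik (ENSMUSG00000039725.6, chr2:165315610-165318824, minus strand) carries a stretch of 1352 bases that is 97.0% identical to Trp53rk, and another of 522 bases at 96.7% that spans the Trp53rk start. RefSeq lists this symbol as a synonym in the Trp53rk family. The gene was named after its values were seen. It was at 7.82, 6.93 and 8.51 CPM in the EtOH control, at 1.63, 1.84 and 1.74 CPM in KO and at 9.95, 12.6 and 11.2 CPM in the 4OHT control. The KO mean was 22.4% of the EtOH control and the log2 fold change was -2.15 (SE 0.16). Per kb of exon, the copy was at 3.66 ± 0.37 CPM (SD, n = 3) in the EtOH control, above Trp53rk at 0.501 ± 0.14. How reads that align to both loci were counted is not given in the sources used here, so reads may have been split between them. The sum of both genes does not depend on such a split, although it would miss reads counted for neither gene. It also does not separate Trp53rk from its copy. It was 10.6 ± 1.5 CPM (SD, n = 3) in the EtOH control, 2.49 ± 0.45 in KO and 14.5 ± 2.4 in the 4OHT control, and the KO libraries were at 19.7, 28.0 and 23.0% of the EtOH library of the same number.

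**Figure D2:**
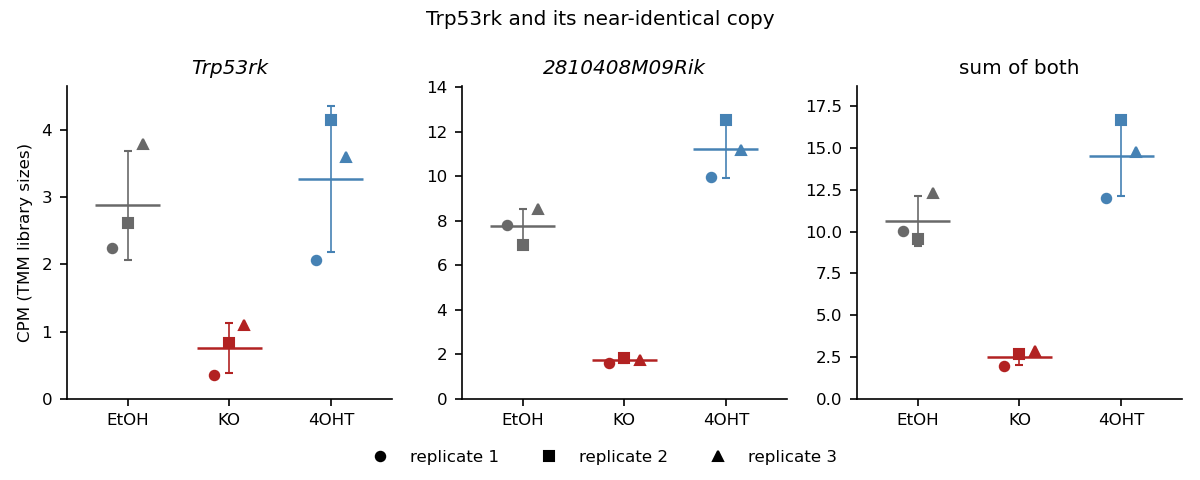
CPM (y axis, from 0) of Trp53rk, of its near-identical copy 2810408M09Rik and of their sum in the 9 libraries, with symbols for replicates 1 to 3, lines for means and bars for SDs (n = 3). In each panel the KO libraries lie below the 6 control libraries, and the summed KO mean is 23.4% of the EtOH control.

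The other KEOPS genes did not share this pattern. Osgep, the catalytic subunit, was at 28.2, 28.1 and 25.2 CPM in the EtOH control and at 29.5, 27.1 and 27.2 CPM in KO. Tprkb, which binds the kinase-like subunit, was at 23.6, 27.3 and 26.7 CPM in the EtOH control and at 26.0, 28.4 and 29.6 CPM in KO. Lage3, the subunit that bridges the complex, was at 20.5, 27.1 and 25.3 CPM in the EtOH control and at 22.1, 26.2 and 24.8 CPM in KO. In all 3 the groups overlapped, and the log2 fold changes were 0.04 (SE 0.10), 0.11 (SE 0.09) and 0.00 (SE 0.15). Osgepl1 was at 15.1, 14.8 and 17.0 CPM in the EtOH control and at 14.0, 16.6 and 14.4 CPM in KO (log2 fold change -0.06, SE 0.11), also with overlap. Of the 4 measured KEOPS subunits only Trp53rk was lower in every KO library, as were 4.06% of all tested genes. It was chosen with that fall known, so nothing is read from this count for the complex. The catalytic subunit was at 103% of the EtOH control.

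The other tRNA methyltransferase genes were also at similar levels in KO and EtOH control. Nsun2 was by far the most abundant, with 356, 417 and 423 CPM in the EtOH control and 345, 392 and 450 CPM in KO (log2 fold change -0.01, SE 0.12). Mettl1 was at 12.5, 20.3 and 20.9 CPM in the EtOH control and at 13.2, 20.1 and 20.1 CPM in KO (-0.01, SE 0.26). Its partner Wdr4 was at 14.3, 21.2 and 20.7 CPM in the EtOH control and at 16.9, 21.9 and 23.1 CPM in KO (0.14, SE 0.19). In Mettl1 and Wdr4, as in Trdmt1, Trp53rk, Tprkb and Lage3, the library of replicate 1 was the lowest in all 3 groups. The spread of these genes within a group thus followed the replicate number in part.

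**Figure D3:**
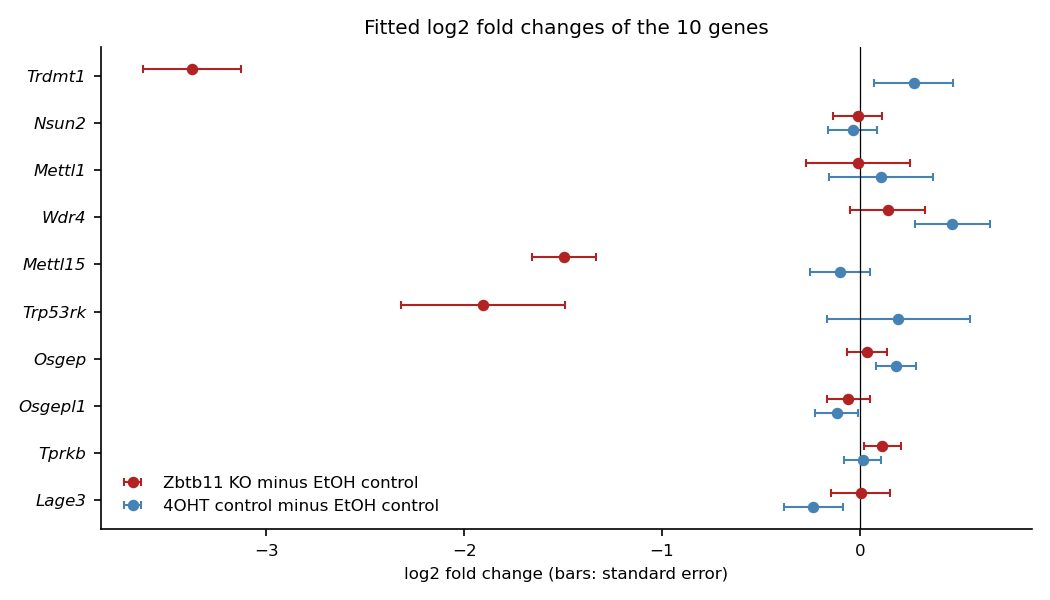
Fitted log2 fold changes (x axis) of the 10 genes for Zbtb11 KO minus EtOH control and for 4OHT control minus EtOH control, with standard errors as bars (n = 3 libraries per group). Trdmt1 (-3.37), Trp53rk (-1.90) and Mettl15 (-1.50) stand apart in KO, and the other 7 KO values lie between -0.06 and 0.14.

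In counts, 3 of the 10 genes lay below the EtOH control in every KO library without overlap, as did 4.06% of all tested genes, and the same 3 lay below both controls, as did 2.37% of all. With edgeR (adjusted p under 0.05, over all genes) 2 of the 10 were called lower against 0.843% of all, and 3 with the replicate number as a block against 1.79%. As the members were chosen with this contrast known, nothing is read from these counts. Against the 4OHT control 3 of the 10 were called lower, against 3.72% of all genes, and that contrast uses the same KO libraries. With the block, 5 of the 10 passed in either direction, against 34.9% of all. The median log2 fold change of KO against EtOH was -0.01 over the 10 genes and 0.00 over all tested genes. The order of the members had a wide gap, since Mettl15, the least lowered of the 3, was at -1.50 and the next, Osgepl1, at -0.06.

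Per kb of exon, the EtOH control levels followed the order Nsun2 (69.5 ± 6.5 CPM per kb, SD, n = 3), Lage3 (12.0 ± 1.7), Tprkb (7.40 ± 0.57), Mettl1 (6.15 ± 1.6), Osgep (5.51 ± 0.35), Wdr4 (3.45 ± 0.71), Osgepl1 (2.54 ± 0.19), Mettl15 (2.42 ± 0.24), Trdmt1 (1.96 ± 0.28) and Trp53rk (0.501 ± 0.14). Neighbours whose libraries overlapped were Tprkb with Mettl1, Mettl1 with Osgep, Wdr4 with Osgepl1 and Osgepl1 with Mettl15. The 3 genes that were low in KO thus had the lowest EtOH means per length, although Mettl15 overlapped with Osgepl1. The place of Trp53rk depends on how reads shared with its copy 2810408M09Rik (3.66 CPM per kb) were counted. In the 4OHT control the mean of Osgepl1 (2.34 ± 0.028 CPM per kb) was below that of Trdmt1 (2.37 ± 0.45). In KO, Trdmt1 was at 0.186 ± 0.046 CPM per kb and Mettl15 at 0.858 ± 0.044.

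The 4OHT control was compared with the EtOH control to see whether the members differed between the control lines, a contrast the choice of genes did not use but which shares the EtOH libraries. None of the 10 passed the edgeR test (0 at adjusted p under 0.05, 1 at an unadjusted p under 0.05, 0 with DESeq2), against 4.06% of all genes. Trdmt1 had a log2 fold change of 0.27 (SE 0.20, edgeR adjusted p = 0.55), Mettl15 of -0.10 (SE 0.15, adjusted p = 0.80) and Trp53rk of 0.20 (SE 0.36, adjusted p = 0.85). In all 3 genes the 4OHT libraries overlapped with the EtOH libraries. The Trp53rk copy 2810408M09Rik lay above all EtOH libraries in the 4OHT control, as did 11.2% of all genes. Its log2 fold change was 0.54 (SE 0.14, edgeR adjusted p = 0.072). Of the members, only Wdr4 and Osgepl1 had 4OHT and EtOH libraries that did not overlap.

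Wdr4 was at 21.3, 27.7 and 28.7 CPM in the 4OHT control, above all 3 EtOH libraries, as were 11.2% of all genes, at 149, 131 and 139% of the EtOH library of the same number. Its log2 fold change was 0.47 (SE 0.19) with an edgeR adjusted p of 0.23, which became 7.33e-05 with the replicate block and 0.00708 without replicate 1. Over all alternatives its adjusted p ranged from 7.33e-05 to 0.858 and the log2 fold change from 0.43 to 0.51. Lage3 was lower, at 16.8, 22.8 and 22.2 CPM (log2 fold change -0.23, SE 0.15, adjusted p = 0.48), and passed only with the block (adjusted p = 0.0199, with 0.0647 to 0.982 over the other alternatives). These blocked calls stand against a background of 33.6% of all genes called with the block and 17.1% without replicate 1, so they are not particular to the 2 genes. Osgepl1 was at 14.2, 14.5 and 14.4 CPM, all below the EtOH libraries by little (log2 fold change -0.12, SE 0.11, adjusted p = 0.66), as were 10.5% of all genes.

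Zbtb11 binding was taken from 7500 high-confidence peaks found with both the Zbtb11 antibody and FLAG-Zbtb11, and a promoter was 2 kb upstream to 500 bases downstream of an annotated start. Of the 10 members 6 had such a peak, as did 31.1% of tested genes, and 3 had a Zbtb11-high peak, as did 6.08% of tested genes. Of the 121 tested genes called lower in KO against EtOH, 112 had a Zbtb11-high peak. As Trdmt1, Trp53rk and Mettl15 were chosen with their fall in KO known, nothing is read from these counts. Zbtb11-high peaks are those above the third quartile plus 1.5 interquartile ranges, here a mean normalised coverage of 309 over the 4 Zbtb11 libraries, against a median of 71.3. The FLAG control list held no peak at any of the 10 promoters.

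The highest mean over the Zbtb11 antibody libraries was that of the Trdmt1 peak (chr2:13465733-13466933, rank 363 of 7500), with its middle 42 bases upstream of the start. Its coverage was 437, 649, 447 and 821 in the Zbtb11 libraries and 339, 344 and 250 in the FLAG-Zbtb11 libraries. All Zbtb11 libraries lay above all FLAG libraries here, as in 16.8% of all peaks, and this held for no other member peak. The Mettl15 peak (chr2:109117873-109119073, rank 384) had its middle 26 bases upstream of the start of its first listed transcript, with 455, 614, 437 and 779 in the Zbtb11 and 522, 528 and 330 in the FLAG libraries. The Zbtb11 libraries of the Trdmt1 and Mettl15 peaks thus overlapped. The Trp53rk peak (chr2:166618628-166619828, rank 586) had its middle 39 bases upstream, with 305, 468, 289 and 589 in the Zbtb11 and 413, 409 and 232 in the FLAG libraries. Each of the 3 was still Zbtb11-high when any 1 Zbtb11 library was left out or when the FLAG libraries were used instead, with ranks of 348 to 397, 373 to 424 and 556 to 704 in the former case and 702, 422 and 607 in the latter. By the FLAG means the order was therefore Mettl15 (460), Trp53rk (351) and Trdmt1 (311). The copy 2810408M09Rik had a Zbtb11-high peak of its own (chr2:165318321-165319521, mean 376 ± 94, SD, n = 4, rank 681). Only uniquely aligned reads were kept for these peaks, so reads that align equally well to both loci were not counted there.

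The 3 other peaks were not Zbtb11-high. Tprkb (chr6:85865150-85866350, rank 2199) had a mean coverage of 124 ± 29 (SD, n = 4), Mettl1 (chr10:126478481-126479681, rank 4486) of 56.9 ± 13 and Wdr4 (chr17:31648457-31649657, rank 5438) of 42.4 ± 15. The Tprkb peak was at 1.74 times the median of all peaks, and the last 2 lay under it. Nsun2 had a peak in both full lists but no high-confidence peak in the promoter as defined here, although 1 came within a promoter drawn 1 kb on each side of a start. Osgep, Osgepl1 and Lage3 had no peak in either full list. None of these 7 genes was lower in KO in all libraries.

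**Figure D4:**
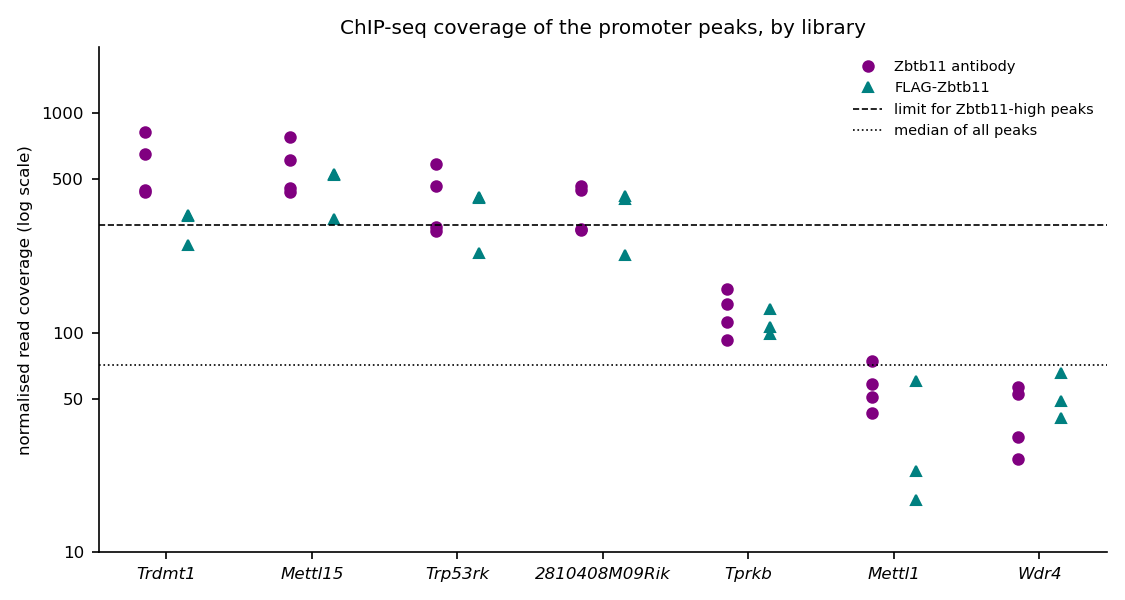
Normalised read coverage (y axis, log scale) of the promoter peaks of 6 members and of the Trp53rk copy, with circles for the 4 Zbtb11 antibody libraries and triangles for the 3 FLAG-Zbtb11 libraries. The dashed line is the limit for Zbtb11-high peaks (309) and the dotted line the median of all 7500 peaks (71.3). The means of Trdmt1, Mettl15, Trp53rk and the copy lie above the limit, and those of Mettl1 and Wdr4 under the median.

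Several members have an annotated start close to that of a gene on the opposite strand, which is not always the bound or first listed start. The Wdr4 start near Ndufv3 (31656919) lies outside the Wdr4 peak. The Nsun2 start near Papd7 (69672646) is not that of its first listed transcript (69750895). Within 1 kb of a start of Nsun2 lie the starts of Papd7 and Srd5a1, and the others are Ndufv3 for Wdr4, Apex1 for Osgep, Kif18a for Mettl15, Fam119b for Mettl1 and Cml1 for Tprkb. The tested partners Srd5a1, Papd7, Ndufv3, Kif18a and Apex1 had log2 fold changes of 0.12, -0.05, -0.08, -0.11 and 0.05 in KO, and none passed the edgeR test. Kif18a, a motor protein of mitosis, starts 10 bases from the most upstream Mettl15 start, which lies outside the peak, and was at 81.1 ± 7.3 CPM in the EtOH control and 75.3 ± 8.4 in KO (SD, n = 3). Fam119b and Cml1 were under the filter, with means of at most 0.36 and 0.718 CPM. Kif18a overlaps the Mettl15 record, Papd7 and Srd5a1 that of Nsun2, Fam119b that of Mettl1 and a further gene, Asnsd1, that of Osgepl1, all on the opposite strand. The libraries were directional, but whether strand was used in counting is not given in the sources used here, so part of these members' reads may belong to the other gene. Stretches shared with other genes also occur in Tprkb, where 31 genes carry a part that is at least 95% identical over 100 bases, in Osgep (3 genes), Osgepl1 (3), Lage3 (2), Mettl1 (1) and Nsun2 (1), and not in Trdmt1, Wdr4 or Mettl15.

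The promoter letters differed among the members. In the window from 250 bases before to 50 after the start, CCGGAAG on either strand was present in Nsun2, Osgep, Osgepl1, Tprkb and Lage3, hence in 5 of 10, against 16.1% of tested promoters. It was absent from Trdmt1, Mettl15 and Trp53rk, although 44.7% of promoters with a Zbtb11-high peak hold it. The palindromic site of NRF-1 was in none of the 10 and in 1.79% of all. The letters GCGGAAC, chosen after the sequences were read, were in Trdmt1 (68 to 62 bases before the start), Mettl15 (69 to 63 before) and Trp53rk (72 to 66 before), each on the strand of the gene, and in no other member. The shorter GCGGAA was in the same 3 members only, and in 19.15% of all promoters. The full letters GCGGAAC were in 4.55% of all promoters, 12.5% of those with a Zbtb11-high peak, 5.6% of those with another peak and 3.47% of those with none. On the strand of the gene and with the first base 60 to 80 bases before the start, they were in 28 of 14346 promoters (0.195%). Of these 13 had a Zbtb11-high peak. This window was also chosen after the sequences were read, and both counts include the 3 members. Without them, 10 of 25 such promoters had a Zbtb11-high peak. In the Trp53rk copy the letters began 97 bases before its annotated start, within the stretch it shares with Trp53rk. A match of letters does not show that a factor binds, and the absence of CCGGAAG does not show that no ETS factor binds.

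The pattern over the 9 libraries that was most like that of Trdmt1 belonged to genes of other pathways. With Pearson's r of log2 CPM over 9 libraries, given as a description, the 5 highest outside the members were 0610011L14Rik (0.997), Ino80b (0.997), a subunit of the INO80 chromatin remodelling complex, Taf1b (0.996), a factor for transcription by RNA polymerase I, Alg3 (0.996), a mannosyltransferase of the glycosylation pathway, and Ankrd40 (0.996). Their libraries share replicate number and sequencing depth with those of Trdmt1. Each had a lower mean in KO than in both controls, as Trdmt1 did, and that fall weighs on r. All 5 had a Zbtb11-high promoter peak, as did 112 of the 121 tested genes called lower in KO against EtOH and 6.08% of all. Nothing is read from this count. Ankrd40 was at a mean of 61.0 CPM in the EtOH control and 9.31 CPM in KO, and Taf1b at 24.3 and 4.61 CPM. Among the members, Mettl15 was at r = 0.961 (rank 90 of all tested genes) and Trp53rk at 0.941 (rank 116). The other 7 ranged from -0.44 (Tprkb) to 0.274 (Wdr4). As Mettl15 and Trp53rk were chosen with their fall in KO known, their high r follows from that choice.

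The wider pathway was followed in 94 other tested genes of tRNA and rRNA modification in 5 lists. In KO against EtOH 5 of the 94 were lower and 0 higher (5.32%, against 0.899% of all genes called), with a median log2 fold change of 0.01 over the 94 and 0.00 over all genes. Without replicate 1 and with the replicate block 8 passed, against 1.5 and 2.25% of all genes, and without replicate 2 or without replicate 3 none did. All 5 had a Zbtb11-high promoter peak, which 19 of the 94 carried, and so did the 3 further genes that passed with the block (Trmu, Cdk5rap1 and Dus1l, named after their values were seen). Of all tested genes with a Zbtb11-high peak 12.8% were lower, against 0.0558% of those with another high-confidence peak.

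The 3 lowered genes of the anticodon loop list, of 25 tested, were Adat2, Tyw5 and Gtpbp3. Adat2, the catalytic subunit of the enzyme that makes inosine at the wobble position, was at 9.44, 12.2 and 10.7 CPM in the EtOH control and at 1.81, 3.93 and 3.53 CPM in KO (log2 fold change -1.80, SE 0.25, edgeR adjusted p = 0.00728). Its partner Adat3 was at 105% of the EtOH control. Tyw5, a hydroxylase in the making of wybutosine on phenylalanine tRNA (1110034B05Rik in the count files), was at 9.18, 11.7 and 10.5 CPM in the EtOH control and at 3.26, 4.51 and 3.63 CPM in KO (-1.46, SE 0.22, adjusted p = 0.0124). Gtpbp3, which modifies the wobble uridine of mitochondrial tRNAs, was at 23.0, 26.1 and 23.4 CPM in the EtOH control and at 10.8, 11.2 and 10.5 CPM in KO (-1.15, SE 0.09, adjusted p = 0.000199). In the 4OHT control it was higher than in the EtOH control (0.45, adjusted p = 0.0255), a comparison that shares the EtOH libraries. Elp6 of the Elongator complex marked the upper end of this list at 0.22 (adjusted p = 1).

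In the list of pseudouridine, dihydrouridine, acetylation and end enzymes, 1 of 14 was lower. Trub2, a mitochondrial pseudouridine synthase, was at 34.8, 40.9 and 39.9 CPM in the EtOH control and at 15.0, 20.4 and 20.0 CPM in KO (-1.06, SE 0.18, edgeR adjusted p = 0.0266), and Thg1l, which adds a guanosine to histidine tRNA, was at the upper end with 0.13. In the list of cytosolic rRNA enzymes 1 of 16 was lower. Mettl5, which methylates an adenosine of small subunit rRNA, was at 25.5, 27.5 and 29.1 CPM in the EtOH control and at 15.3, 16.8 and 15.0 CPM in KO (-0.80, SE 0.12, adjusted p = 0.0106), and Nop2 was at the upper end with 0.14. These 5 genes were also called lower against the 4OHT control, with log2 fold changes of -0.63 (Mettl5) to -1.61 (Gtpbp3), as were 3.72% of all genes. That contrast uses the same KO libraries, so it is not a separate test of these genes.

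The remaining lists held no called gene in KO against EtOH. Of the 29 other tRNA methyltransferases 0 passed with edgeR, 0 had an unadjusted p under 0.05 and 0 passed with DESeq2, and the values ran from -0.08 (Trmt2b) to 0.24 (Trmt44). Of the 10 mitochondrial rRNA enzymes 0 passed on the same 3 counts, with values from -0.20 (Nsun4) to 0.19 (Mrm1). Trdmt1 and Mettl15 were thus the lowest of the genes of their own kind, which follows from their choice. In the 4OHT control against EtOH 3 of the 94 genes passed, Gtpbp3 higher and Thumpd3 (-0.77, edgeR adjusted p = 0.0165) and Trnt1 (-0.71, adjusted p = 0.0372) lower, against 4.06% of all genes. Thumpd3 and Trnt1 were named after their values were seen. With the replicate block 24 passed, against 33.6% of all.

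**Figure D5:**
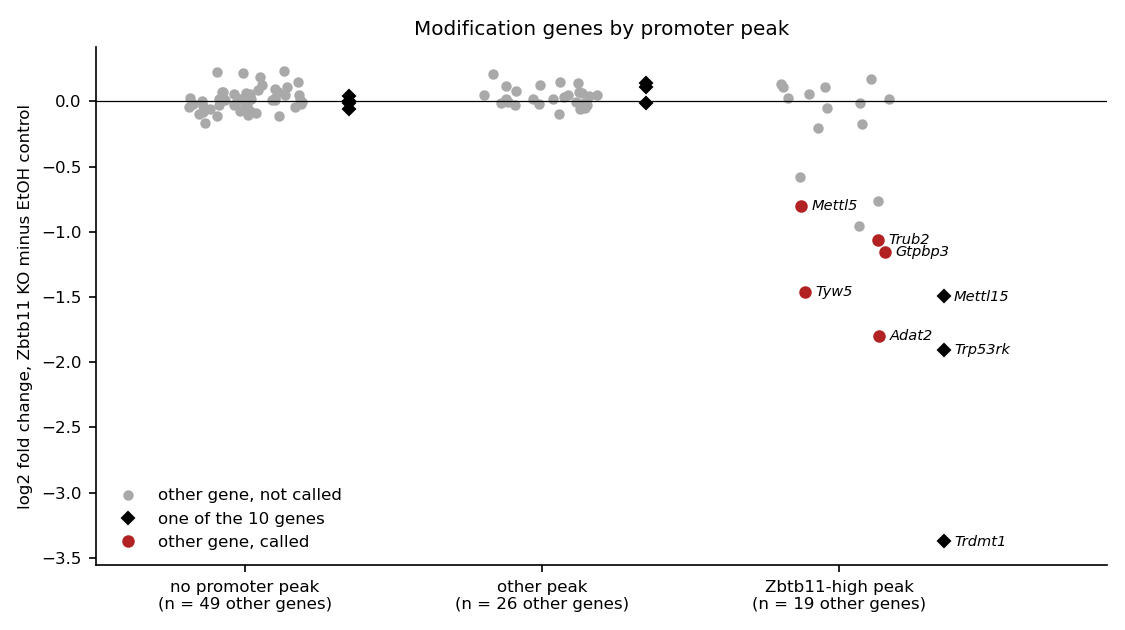
Log2 fold change of Zbtb11 KO minus EtOH control (y axis) of 94 other modification genes (circles, spread sideways at random) and the 10 members (diamonds), by the promoter peak they carry: none (49 other genes), a high-confidence peak that is not Zbtb11-high (26) or a Zbtb11-high peak (19). Filled red circles passed the edgeR test, and all 5 of them, like Trdmt1, Trp53rk and Mettl15, are in the Zbtb11-high column.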

How the data were processed

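RNA-seq was measured in 9 libraries and ChIP-seq in 9, and the 5 input libraries were not used here. The deposited gene counts are raw. Per the labels and methods, the authors trimmed reads, used STAR for alignment to the transcriptome and HTSeq for counting. Reads on no feature (25.3 to 31.6% of a library) and ambiguous reads (0.79 to 0.905%) were left out of library sizes. The coverage (signal) of consensus peaks was deposited by the authors after alignment to mm9 with Bowtie 1.1.2, keeping unique reads, and normalisation with DiffBind, and their peak lists are joint over the replicates of each ChIP.

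Counts were tested with edgeR 4.0.16 in R 4.3.3 (TMM, quasi-likelihood F test, two-sided, all 9 libraries in 1 fit without a block), with p values adjusted over 14346 genes by the Benjamini-Hochberg method and a threshold of 0.05. CPM use TMM library sizes and exon lengths of the GENCODE vM1 annotation. The precision is set by 3 libraries per group and by the reads per gene. Libraries with the same replicate number deviated from their group means together (r of 0.421 to 0.815 over genes, and -0.748 to 0.52 between numbers). The number was taken to pair them, and the blocked value is given where it changes a call or count. For replicates 2 and 3 the values within and between numbers overlapped, so their pairing is less clear than that of replicate 1. The study's methods left out 1 replicate for their final list without giving its number.

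Promoter sequences came from the mm9 genome (samtools 1.23.1), and near-identical stretches found with blastn 2.17.0. Alternatives were DESeq2 1.42.0, other filters and library sizes, each replicate left out, the block, the 2 groups alone, and other promoter widths, peak lists and letters. Python 3.11.15, pandas 2.3.3 and matplotlib 3.10.9 were also used.

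The members and lists were chosen with earlier results of these data known. Named genes are the 10 members, modification genes called in KO against EtOH and the ends of each list, the 5 genes most like Trdmt1, and genes starting within 1 kb of a member on the opposite strand, and names outside this rule are marked. Of 96 listed modification genes 95 were matched to a symbol, and Gon7 was not. Further genes named as parts of an overlap, marker list or enzyme pair were named for that relation.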

Additional observations from a re-analysis of the deposited data

How the results depend on the processing

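The log2 fold changes of the 10 members were recomputed 300 times over the 3 contrasts and their alternatives. None changed sign where it was called in either fit, and 280 kept their side of the threshold. The number of members called in KO against EtOH was 2, and it was 3 with DESeq2, with the replicate block and with the block over replicates 2 and 3, and between 0 and 3 with 1 replicate left out. Against the 4OHT control it was 3, and 5 with the replicate block, 4 with the block over replicates 2 and 3 and between 1 and 4 with a replicate left out. For the 4OHT control against EtOH it was 0, and 2 with the replicate block, 1 with the block over replicates 2 and 3 and between 0 and 1 with a replicate left out. Of all tested genes, 0.899% were called in KO against EtOH in the main fit, 1.5% without replicate 1 and 2.25% with the block. For the 4OHT control against EtOH these shares were 4.06, 17.1 and 33.6%. Against the 4OHT control, 3.72% were called lower in the main fit and 34.9% in either direction with the block. Shares for the other alternatives are not given here, so nothing is read from their counts.

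Of the 94 other modification genes, 5 were called in KO against EtOH, with 8 under either replicate block and 0 to 8 with a replicate left out. DESeq2 gave 7. For the 4OHT control against EtOH, 3 were called, with 6 by DESeq2, 24 with the replicate block, 22 with the block over replicates 2 and 3, 0 with only the 2 groups compared, 2 without a filter and 0 to 16 with a replicate left out. The common coefficient of variation was 0.223 without replicate 2 and 0.197 without replicate 3, against 0.174 with all. The cause of the other differences was not tested. The shares of all genes given above for the members, and their limits, hold for these counts too.

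A high-confidence promoter peak was found at 6 members, at 7 with a promoter of 1 kb on each side or with either full peak list, and at 3 as Zbtb11-high peaks or when only the start of the gene record was used. The latter 3 were Trdmt1, Mettl1 and Tprkb, since the Mettl15, Trp53rk and Wdr4 peaks lie at inner starts. With FLAG-Zbtb11 libraries the mean coverage was 311 for Trdmt1 and 33.6 for Mettl1. CCGGAAG was in 5 members, also as CCGGAA, and in 6 with 500 bases on each side. The lowest reads per library, 6 to 22 for Trp53rk and 9 to 18 for Trdmt1 in KO, limit the precision of their KO levels.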

Other observations

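Outside the members, 25 tested genes held GCGGAAC on their own strand with its first base 60 to 80 bases before the start, a window chosen after the members' promoters were read. Of these 10 had a Zbtb11-high peak. The genes called lower in KO against EtOH among the 25 were 4, Acbd6, Pex3, Sar1b and Taco1 (named after their values were seen), against 0.843% of all tested genes and 12.8% of those with a Zbtb11-high peak. The median log2 fold change of the 25 was -0.04, with values from -1.92 to 2.17.

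The promoters of Trdmt1, Mettl15 and Trp53rk differed in base composition. Over 300 bases their GC content was 55.3, 44.3 and 59.0%, against a median of 60.3% over all tested promoters, and they held 15, 10 and 23 CpG dinucleotides, against a median of 19. Trdmt1 and Mettl15 were below the median in both measures.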
